A study of Homo sapiens with 9 samples.

Results

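The endoplasmic reticulum (ER) folds, modifies and inspects proteins of the secretory pathway, and 43 genes of its folding machinery and of the unfolded protein response were followed here through knockdown of UGDH, which makes UDP-glucuronic acid from UDP-glucose. The genes were taken by symbol from a list of chaperones, disulfide enzymes, degradation factors, translocation factors and stress sensors. No measured value entered this rule, but the list was chosen with earlier results of these data known. All 43 were among the 23710 entries of the count table, and all 43 passed the filter on low counts that left 12546 genes for testing. RNA was sequenced from MDA-MB-231, a human triple-negative breast cancer cell line with a mesenchymal character, in 3 libraries per hairpin. All cells, controls included, had been transduced with pGIPZ lentivirus and grown in DMEM with serum as biological replicates. The groups carried the hairpin shUGDH-2 against UGDH, the hairpin shUGDH-1 against UGDH, or the non-targeting hairpin shNT. Whether each replicate was a separate transduction, and how carrying cells were selected, is not stated in the labels, so each p-value reflects only how much these libraries vary. The question put by the design is what lowering UGDH does to the cells' mRNA.

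Nascent chains enter the ER through the Sec61 channel, are bound by the Hsp70 chaperone HSPA5 (BiP) and its cofactors, gain disulfide bonds from the protein disulfide isomerases, and, where N-glycosylated, cycle through the lectins calnexin and calreticulin. Chains that do not fold are returned to the cytosol through a ubiquitin ligase complex built on SYVN1 and SEL1L and are degraded. When unfolded chains accumulate, the sensors IRE1 (ERN1), ATF6 and PERK (EIF2AK3) start the unfolded protein response: IRE1 splices the XBP1 mRNA, ATF6 is cleaved into a transcription factor, and PERK phosphorylates eIF2-alpha, which favours translation of ATF4. XBP1 and ATF6 act on many of the genes described here.

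Libraries held 9249738 to 13328002 counts. UGDH itself stood at 8.09, 6.62 and 6.79 CPM (counts scaled to a common library size) with shUGDH-2, at 7.62, 7.30 and 8.03 CPM with shUGDH-1 and at 53.0, 55.6 and 50.3 CPM with shNT, so it was low in every library labelled with a UGDH hairpin. Its log2 fold change was -2.89 (SE 0.08) with shUGDH-2 and -2.80 (SE 0.08) with shUGDH-1. The 5 mesenchymal markers VIM, CD44, CAV1, AXL and MSN summed to 7458 to 7604 CPM with shUGDH-2, 7905 to 7960 CPM with shUGDH-1 and 7457 to 7584 CPM with shNT. Of the 5 luminal markers, ESR1, PGR, FOXA1 and ELF5 stayed below 1 CPM in every library and GATA3 carried nearly all of the sum. This sum was 43.5 to 48.2 CPM with shUGDH-2, 38.4 to 42.0 CPM with shUGDH-1 and 34.1 to 40.2 CPM with shNT. Of 5 leukocyte markers, 4 stayed below 1 CPM, and of 5 fibroblast markers, 3 did. The leukocyte markers summed to 1.78 to 2.23 CPM with shUGDH-2, 2.06 to 2.77 CPM with shUGDH-1 and 1.53 to 1.70 CPM with shNT, and the fibroblast markers to 26.5 to 27.6, 23.2 to 26.3 and 24.1 to 25.9 CPM in the same order. The part of these marker differences in the results below was not tested. In bulk RNA, less RNA per cell and fewer cells with the RNA cannot be told apart.

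The 43 genes moved little. With shUGDH-2, XBP1 and HERPUD1 rose 1.20-fold each, HYOU1 rose 1.11-fold, SYVN1 1.1-fold and HSPA5 1.09-fold, among 10 genes that rose. The only gene that fell was SSR1, a subunit of the translocon-associated protein complex. With shUGDH-1, XBP1 rose 1.18-fold, HERPUD1 1.14-fold, HYOU1 1.1-fold, P4HB 1.09-fold and HSPA5 1.05-fold. CRELD1, with few counts and overlapping groups, rose 1.23-fold. SSR1, SEC24D, HSP90B1 and CANX fell with shUGDH-1. The test was the quasi-likelihood test of edgeR, adjusted by Benjamini-Hochberg over all 12546 genes, and a gene rose or fell where its adjusted p was under 0.05, with no minimum fold. Both contrasts use the same shNT libraries, so their values are set side by side only.

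In shUGDH-2 against shNT, 10 of the 43 genes (23.3%) rose, against 8.04% of all genes tested, and 1 (2.33%) fell, against 6.81% of all genes. In shUGDH-1 against shNT, 6 genes (14%) rose, against 10.5% of all genes, and 4 (9.3%) fell, against 10.3%. Genes of this set are abundant, and abundant genes are called more often: the median level was 498.8 CPM for the 11 genes called with shUGDH-2 and 90.7 CPM for the 32 that were not. Among the 2485 genes with a mean of at least 100 CPM, 17.9% rose and 14.4% fell with shUGDH-2, while of the 21 listed genes at that level 7 (33.3%) rose and 1 (4.76%) fell. With shUGDH-1 the background at that level was 20.5% that rose and 19.1% that fell, and of the same 21 genes 3 (14.3%) rose and 4 (19%) fell. The share that rose with shUGDH-1 was thus not above its background at that level, but it rests on only 3 of 21 genes. The median log2 fold change of the 43 genes was 0.044 with shUGDH-2 and 0.038 with shUGDH-1, beside -0.0059 and -0.0026 over all genes. Without shUGDH-1 replicate 3, 2 genes fell with shUGDH-1. DESeq2 did not call CANX, CRELD1 and HERPUD1 with shUGDH-1, nor DNAJB11, CALR, PDIA4 and SSR1 with shUGDH-2. The median was 0.025 with shUGDH-2 without shUGDH-2 replicate 3, and 0.0179 with shUGDH-1 without shNT replicate 3. Together the 43 genes held 11323 to 11341 CPM in the shUGDH-2 libraries, 11109 to 11158 CPM in the shUGDH-1 libraries and 10902 to 10979 CPM in the shNT libraries.

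**Figure D1:**
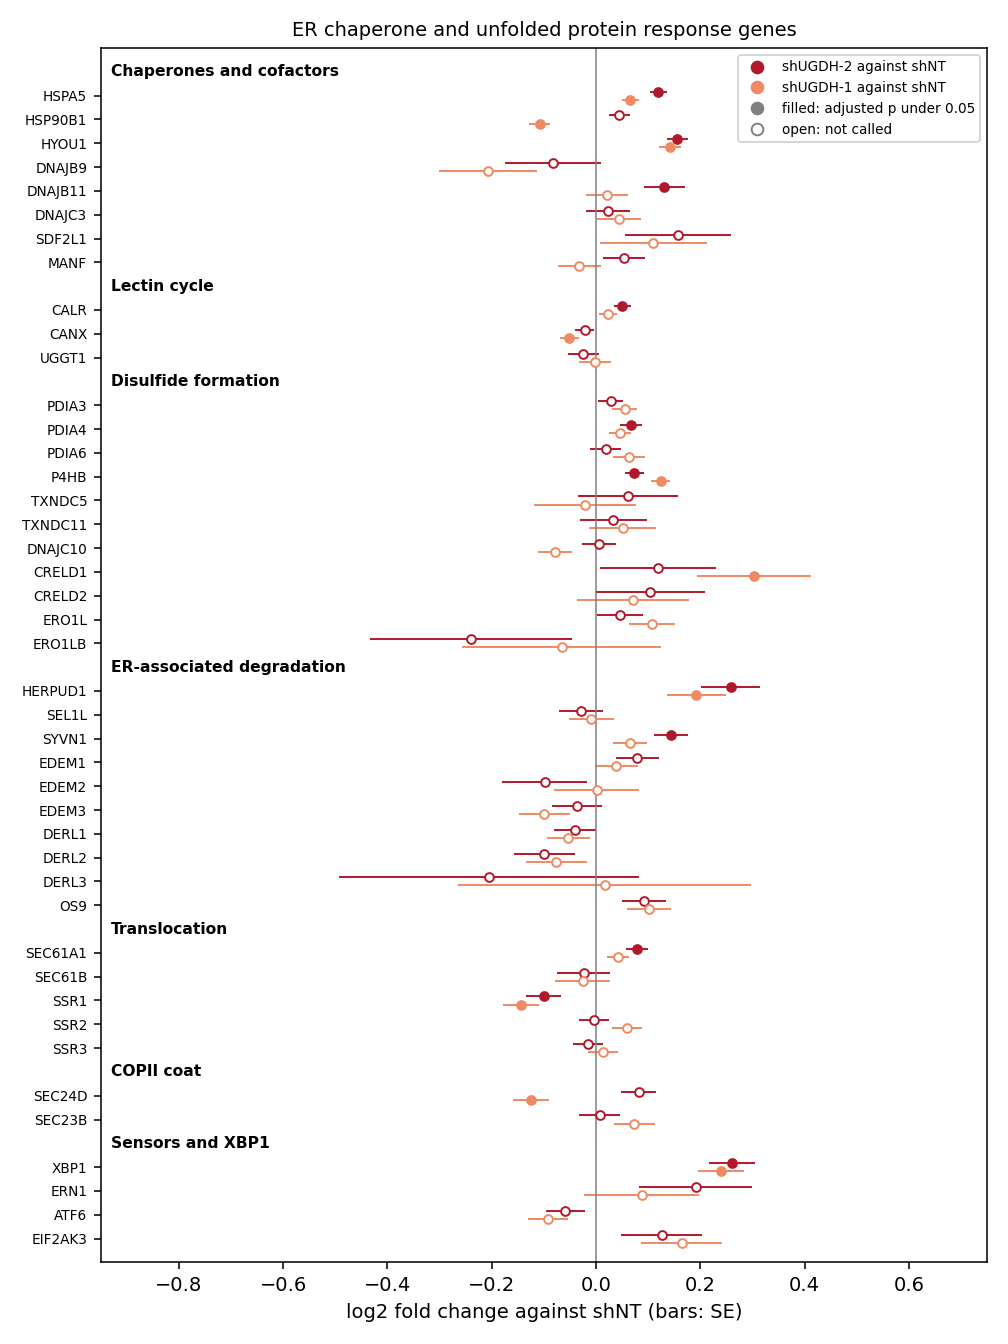
Log2 fold change against shNT (x axis, bars show the standard error) of the 43 genes by function, for shUGDH-2 (dark red) and shUGDH-1 (orange). Filled points passed an adjusted p under 0.05. Filled points lie between -0.14 and 0.30, and the widest bars belong to the genes with the lowest counts.

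Several of these genes are textbook targets of ATF6 and XBP1 through short promoter elements, and the sequences are shown for that reason. A link between the elements and the changes in level was not tested. Promoters (250 bases before to 50 after the start, RefSeq, GRCh38.p14) were found for 39 of the 43 genes and searched on both strands. The ER stress response element (ERSE), with the letters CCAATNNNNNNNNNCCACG, stood in 7 of 39 promoters (17.9%), beside 22 of all 27305 promoters (0.0806%). Its shorter form without the last G, which overlaps it, stood in 8 of 39 (20.5%), beside 0.326% of all. ERSE-II, which reads ATTGG, 1 base of any kind and CCACG, stood in 3 of 39 (7.69%), beside 0.0549%, and the core of the unfolded protein response element, TGACGTGG, in 3 of 39 (7.69%), beside 0.795%. The CCAAT box, which is part of the longer elements, stood in 30 of 39 (76.9%), beside 35.7%. A match describes the letters only. The genes were listed for this pathway, so a high share is not independent of the choice. The windows below are written 5′ to 3′ on the gene's strand, with the matched element in capitals. An ERSE or ERSE-II that starts with CGTGG lies on the opposite strand. The TGACGTGG core of HYOU1 lies on the gene's strand.
XBP1 (chr22:28800591-28800633, minus strand, ERSE): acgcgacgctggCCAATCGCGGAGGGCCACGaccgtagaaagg
HSPA5 (chr9:125241379-125241421, minus strand, ERSE): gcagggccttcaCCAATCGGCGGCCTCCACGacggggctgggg
CALR (chr19:12938372-12938414, plus strand, ERSE): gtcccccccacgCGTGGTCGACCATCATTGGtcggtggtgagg
CANX (chr5:179698766-179698808, plus strand, ERSE): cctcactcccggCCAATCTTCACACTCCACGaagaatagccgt
HERPUD1 (chr16:56932013-56932047, plus strand, ERSE-II): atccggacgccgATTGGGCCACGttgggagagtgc
HYOU1 (chr11:119057262-119057405, minus strand, ERSE-II at both ends, the first overlapped by the TGACGTGG core): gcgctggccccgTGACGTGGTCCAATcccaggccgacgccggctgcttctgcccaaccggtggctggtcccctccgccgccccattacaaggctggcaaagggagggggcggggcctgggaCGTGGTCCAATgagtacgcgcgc
HSP90B1 (chr12:103930204-103930351, plus strand, ERSE at both ends): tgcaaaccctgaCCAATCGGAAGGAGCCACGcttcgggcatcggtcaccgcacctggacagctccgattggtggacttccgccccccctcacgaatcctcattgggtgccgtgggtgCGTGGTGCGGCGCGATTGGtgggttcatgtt
The full-length ERSE was also found in CRELD2 and ERO1LB, ERSE-II in SDF2L1, and the TGACGTGG core in TXNDC11 and DNAJC10. None of these genes was called in any comparison. DNAJB11, P4HB, PDIA4, CRELD1, SYVN1, SEC61A1 and SSR1, which were called, held no ERSE, ERSE-II or TGACGTGG core.

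Of the 8 chaperones and cofactors, 3 (37.5%) rose and none fell with shUGDH-2, beside 8.04% and 6.81% of all genes. With shUGDH-1, 2 (25%) rose and 1 (12.5%) fell, beside 10.5% and 10.3%. In each contrast, 4 of the 8 had an unadjusted p under 0.05 in either direction, beside 26.3% of all genes with shUGDH-2 and 31.7% with shUGDH-1. HYOU1, a large Hsp70-like protein that serves as nucleotide exchange factor of HSPA5, stood at 682, 660.0 and 680.0 CPM with shUGDH-2, at 666, 659.5 and 679 CPM with shUGDH-1 and at 599, 604 and 612 CPM with shNT. Every library of either UGDH hairpin lay above every shNT library. On the log2 scale HYOU1 rose by 0.16 (SE 0.02, adjusted p = 2.48e-08) with shUGDH-2 and by 0.14 (SE 0.02, adjusted p = 1.45e-07) with shUGDH-1. HSPA5 stood at 1394, 1401 and 1408 CPM with shUGDH-2, at 1347, 1352 and 1350.3 CPM with shUGDH-1 and at 1272, 1285 and 1312 CPM with shNT, so that the 3 groups did not overlap. On the log2 scale HSPA5 rose by 0.12 (SE 0.02, adjusted p = 1.73e-07) with shUGDH-2 and by 0.07 (SE 0.02, adjusted p = 0.00244) with shUGDH-1. In the promoter windows printed above, HYOU1 carries ERSE-II and HSPA5 the full-length ERSE. HSP90B1 and CANX, which fell with shUGDH-1, carry the full-length ERSE too. A link between element and change was not tested.

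DNAJB11, a J-domain co-chaperone that brings clients to HSPA5, stood at 107, 103 and 106 CPM with shUGDH-2, at 93.9, 99.5 and 99.6 CPM with shUGDH-1 and at 96, 97.8 and 94.4 CPM with shNT. It rose with shUGDH-2 (log2 fold change 0.13, SE 0.04, adjusted p = 0.0154), where all libraries lay above all others, and its log2 fold change with shUGDH-1 was 0.02 (adjusted p = 0.771). The call with shUGDH-2 was lost without shNT replicate 3 (adjusted p = 0.0664), shUGDH-2 replicate 1 (0.0631) or shUGDH-2 replicate 3 (0.0527). HSP90B1, the Hsp90 of the ER lumen, stood at 707, 719 and 693 CPM with shUGDH-2, at 638, 643 and 624 CPM with shUGDH-1 and at 689, 669 and 697 CPM with shNT. The shUGDH-1 libraries were lowest, and it fell there by 0.11 on the log2 scale (SE 0.02, adjusted p = 4.28e-05), while shUGDH-2 overlapped shNT (log2 fold change 0.04, adjusted p = 0.144). The other chaperone genes did not pass in either contrast: DNAJB9 and DNAJC3, J-domain co-chaperones, SDF2L1, an HSPA5 cofactor, and MANF, a secreted ER stress protein, had log2 fold changes of -0.08, 0.02, 0.16 and 0.05 with shUGDH-2 and of -0.21, 0.04, 0.11 and -0.03 with shUGDH-1. DNAJB9 and SDF2L1 averaged 13.7 to 16.7 CPM over the groups, with standard errors of 0.09 to 0.10, so that changes of this size were not detectable in them. The count table also lists pseudogene copies of HSP90B1 (HSP90B2P, 2 to 11 counts a library, beside 5754 to 9332 counts for HSP90B1) and of the disulfide isomerase PDIA3 (PDIA3P, 46 to 91 counts, beside 3816 to 5503 counts).

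Among the lectins, CALR, which encodes calreticulin, stood at 1382, 1394 and 1421 CPM with shUGDH-2, at 1375, 1362 and 1379 CPM with shUGDH-1 and at 1325, 1373 and 1354 CPM with shNT. The shUGDH-2 libraries were the highest and it rose there (log2 fold change 0.05, SE 0.02, adjusted p = 0.034), but the call was lost without shNT replicate 1 (adjusted p = 0.173), shNT replicate 3 (0.0665), shUGDH-1 replicate 2 (0.0518), shUGDH-2 replicate 2 (0.052) or shUGDH-2 replicate 3 (0.18), and in a fit of shUGDH-2 and shNT alone (0.068). CANX, which encodes the membrane-bound calnexin, stood at 1514, 1524 and 1489.6 CPM with shUGDH-2, at 1518, 1475 and 1442 CPM with shUGDH-1 and at 1573, 1509 and 1516 CPM with shNT. All 3 groups overlapped. It fell with shUGDH-1 (log2 fold change -0.05, SE 0.02, adjusted p = 0.0321), a call lost without shNT replicate 1 (log2 fold change -0.03, adjusted p = 0.28), shUGDH-1 replicate 2 (0.117) or shUGDH-1 replicate 3 (0.27). UGGT1, the folding sensor that returns glycoproteins to the lectins, averaged 209.7 ± 7.21 CPM with shUGDH-2, 214 ± 6.74 CPM with shUGDH-1 and 213 ± 4.43 CPM with shNT and passed in neither contrast.

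**Figure D2:**
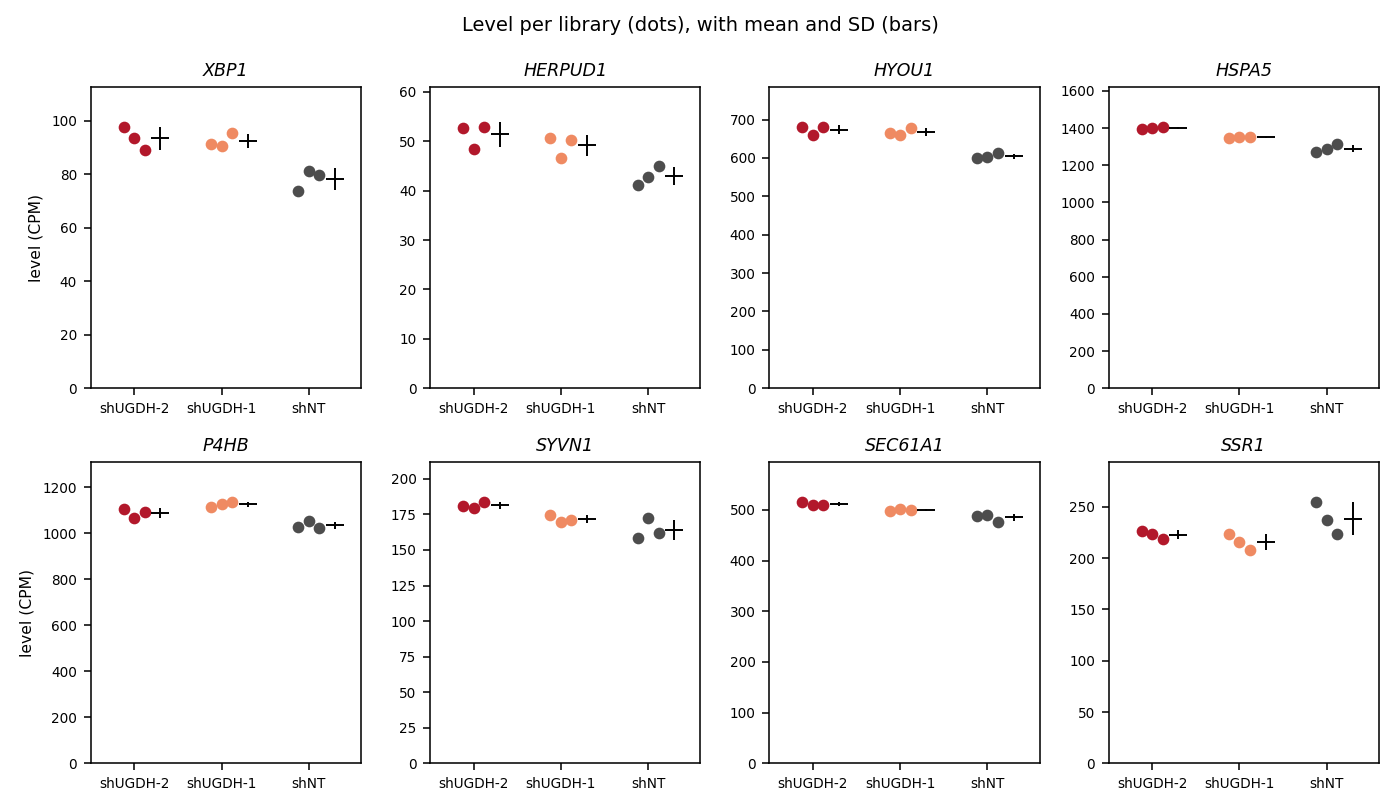
Level in CPM (y axis from 0) of 8 genes in every library (dots), with mean and SD (bars, n = 3), for shUGDH-2, shUGDH-1 and shNT. XBP1, HERPUD1, HYOU1, HSPA5 and P4HB show both UGDH hairpins above every shNT library, and SSR1 shows 1 shNT library at 255 CPM above the rest.

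Of the 11 disulfide genes, 2 (18.2%) rose with shUGDH-2 (P4HB and PDIA4), beside 8.04% of all genes. With shUGDH-1, 2 (18.2%) rose (P4HB and CRELD1), beside 10.5%. None fell with shUGDH-2 or shUGDH-1, beside 6.81% and 10.3% of all genes. An unadjusted p under 0.05 was reached by 2 with shUGDH-2, beside 26.3% of all genes, and by 7 with shUGDH-1, beside 31.7%. P4HB, a protein disulfide isomerase that is also the beta subunit of the collagen prolyl hydroxylase, stood at 1107, 1065 and 1093 CPM with shUGDH-2, at 1116, 1129 and 1138 CPM with shUGDH-1 and at 1027, 1054 and 1024 CPM with shNT. Both UGDH hairpins lay above shNT without overlap, and it rose with shUGDH-2 (log2 fold change 0.07, SE 0.02, adjusted p = 0.00302) and with shUGDH-1 (0.12, SE 0.02, adjusted p = 2.79e-07). PDIA4, an isomerase with an additional active domain, stood at 523, 519.7 and 522 CPM with shUGDH-2, at 512, 514 and 516 CPM with shUGDH-1 and at 487, 504 and 504 CPM with shNT. The groups did not overlap, and it rose with shUGDH-2 (log2 fold change 0.07, SE 0.02, adjusted p = 0.0211), a call lost without shNT replicate 1 (adjusted p = 0.136), shUGDH-2 replicate 1 (0.0647) or shUGDH-2 replicate 3 (0.0532). With shUGDH-1 its log2 fold change was 0.05 (adjusted p = 0.13).

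CRELD1, a membrane protein with a disulfide isomerase activity reported for its family, had few counts, at 13, 12.5 and 11.5 CPM with shUGDH-2, 14.2, 12.6 and 15.5 CPM with shUGDH-1 and 12.9, 11.4 and 9.54 CPM with shNT. The groups overlapped. It rose with shUGDH-1 (log2 fold change 0.30, SE 0.11, adjusted p = 0.0384), but not without shNT replicate 2 (adjusted p = 0.0673), shNT replicate 3 (log2 fold change 0.20, adjusted p = 0.258), shUGDH-1 replicate 1 (0.108) or shUGDH-1 replicate 3 (0.169). The remaining disulfide genes were PDIA3, PDIA6, TXNDC5, TXNDC11 and CRELD2, isomerases or relatives of them, the oxidases ERO1L and ERO1LB that recharge the isomerases, and the reductase DNAJC10. None passed in either contrast against shNT. Their log2 fold changes ran from -0.24 (ERO1LB) to 0.10 (CRELD2) with shUGDH-2 and from -0.08 (DNAJC10) to 0.11 (ERO1L) with shUGDH-1. ERO1LB had 32 to 58 counts a library and a standard error of 0.19 in both contrasts, so that even a change of 0.24 was not detectable in it. The standard errors of CRELD2 and TXNDC5 were 0.10 to 0.11. PDIA3, PDIA6 and ERO1L lay above shNT without overlap in the shUGDH-1 libraries, with adjusted p of 0.0893, 0.135 and 0.0799. Leaving out shNT replicate 1 brought ERO1L to an adjusted p of 0.0275, and leaving out shNT replicate 3 brought DNAJC10 to 0.0486.

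In ER-associated degradation, HERPUD1, a membrane protein that helps assemble the SYVN1 ligase complex, moved most. It stood at 52.7, 48.5 and 53 CPM with shUGDH-2, at 50.6, 46.7 and 50.2 CPM with shUGDH-1 and at 41.3, 42.8 and 45 CPM with shNT. Every library of either UGDH hairpin was above every shNT library. It rose with shUGDH-2 (log2 fold change 0.26, SE 0.06, adjusted p = 0.000589) and with shUGDH-1 (0.19, SE 0.06, adjusted p = 0.00966), and the shUGDH-1 call was lost without shNT replicate 1 (adjusted p = 0.0533) or shUGDH-1 replicate 1 (0.0639). SYVN1, the ubiquitin ligase itself, stood at 181, 179 and 184 CPM with shUGDH-2, at 175, 169 and 171 CPM with shUGDH-1 and at 159, 172 and 162 CPM with shNT. It rose with shUGDH-2 (log2 fold change 0.14, SE 0.03, adjusted p = 0.000883), where the groups did not overlap. With shUGDH-1 its log2 fold change was 0.07 (adjusted p = 0.154), with an adjusted p of 0.0359 once shNT replicate 2 was left out.

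The other 8 degradation genes did not pass in either contrast, and 1 of them with shUGDH-2 and 2 with shUGDH-1 had an unadjusted p under 0.05 (26.3% and 31.7% of all genes). SEL1L, the partner that holds SYVN1 in the complex, averaged 92.4 ± 2.94 CPM with shUGDH-2, 93.5 ± 3.55 CPM with shUGDH-1 and 94.1 ± 5.44 CPM with shNT. The mannosidase-like proteins EDEM1, EDEM2 and EDEM3, which mark glycoproteins for removal, had log2 fold changes of 0.08, -0.10 and -0.04 with shUGDH-2 and of 0.04, 0.00 and -0.10 with shUGDH-1. The Derlins DERL1, DERL2 and DERL3, which help clients leave the membrane, had -0.04, -0.10 and -0.20 with shUGDH-2 and -0.05, -0.08 and 0.02 with shUGDH-1. DERL3 had 13 to 24 counts a library and a standard error of 0.28 to 0.29, so that even a change of 0.26, the size seen for HERPUD1, was not detectable in it. OS9, a lectin that passes clients to the complex, had 0.09 (adjusted p = 0.137) with shUGDH-2 and 0.10 (adjusted p = 0.0808) with shUGDH-1. Without shNT replicate 2 the adjusted p of OS9 came to 0.0427 and 0.0227.

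For translocation, SEC61A1, the pore-forming subunit of the Sec61 channel, stood at 516, 509.7 and 510.3 CPM with shUGDH-2, at 497, 501 and 500.1 CPM with shUGDH-1 and at 488, 490.1 and 477 CPM with shNT. The 3 groups were separate. It rose with shUGDH-2 (log2 fold change 0.08, SE 0.02, adjusted p = 0.00678), a call lost without shNT replicate 3 (adjusted p = 0.0568), and had 0.04 with shUGDH-1 (adjusted p = 0.167). SSR1 stood at 226, 224 and 218 CPM with shUGDH-2, at 223, 216 and 208 CPM with shUGDH-1 and at 255, 237 and 223 CPM with shNT. The highest value is shNT replicate 1, and shUGDH-2 overlapped shNT. It fell with shUGDH-2 (log2 fold change -0.10, SE 0.03, adjusted p = 0.0377) and with shUGDH-1 (-0.14, SE 0.03, adjusted p = 0.00154). Without shNT replicate 1 these values were -0.05 (adjusted p = 0.414) and -0.09, the second still called. The shUGDH-2 call was also lost without shNT replicate 2 (adjusted p = 0.0672), shUGDH-1 replicate 2 (0.0606), shUGDH-2 replicate 1 (0.0646), shUGDH-2 replicate 2 (0.0957) or shUGDH-2 replicate 3 (0.167). SEC61B, the channel's small beta subunit, and SSR2 and SSR3, partners of SSR1, did not pass, with log2 fold changes of -0.02, -0.0038 and -0.01 with shUGDH-2 and of -0.03, 0.06 and 0.01 with shUGDH-1.

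Folded cargo leaves in COPII vesicles, whose coat proteins SEC24D and SEC23B were listed too. SEC24D, a cargo-binding subunit, stood at 173, 163 and 177 CPM with shUGDH-2, at 148, 154 and 142 CPM with shUGDH-1 and at 159, 167 and 159 CPM with shNT. The shUGDH-1 libraries were lowest. It fell with shUGDH-1 (log2 fold change -0.12, SE 0.04, adjusted p = 0.00649), but not without shNT replicate 2 (adjusted p = 0.0549) or shUGDH-1 replicate 3 (0.0687). With shUGDH-2 its log2 fold change was 0.08 (adjusted p = 0.0992), and it passed without shNT replicate 2 (adjusted p = 0.0457) or shUGDH-2 replicate 2 (0.0306). SEC23B averaged 100.3 ± 2.95 CPM with shUGDH-2, 105 ± 3.01 CPM with shUGDH-1 and 99.8 ± 1.01 CPM with shNT and passed in neither contrast.

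Of the signalling genes, the transcription factor XBP1 rose and the 3 sensors did not pass. XBP1 stood at 97.8, 93.4 and 89.2 CPM with shUGDH-2, at 91.1, 90.6 and 95.3 CPM with shUGDH-1 and at 73.5, 81.1 and 79.7 CPM with shNT, without overlap against shNT. It rose by 0.26 on the log2 scale (SE 0.04, adjusted p = 1.04e-05) with shUGDH-2 and by 0.24 (SE 0.04, adjusted p = 3.09e-05) with shUGDH-1. Gene counts do not tell spliced from unspliced XBP1 mRNA, so they carry no reading of IRE1 activity. ERN1 stood at 11.1, 11.9 and 11.9 CPM with shUGDH-2, 11.2, 10.3 and 11 CPM with shUGDH-1 and 10.4, 10.2 and 9.97 CPM with shNT (adjusted p = 0.254 and 0.647). ATF6 stood at 118, 130.1 and 131 CPM with shUGDH-2, 127, 126 and 117 CPM with shUGDH-1 and 135, 130.0 and 131 CPM with shNT (adjusted p = 0.336 and 0.0822). EIF2AK3 stood at 29.9, 26.6 and 23.5 CPM with shUGDH-2, 29, 26.4 and 26.5 CPM with shUGDH-1 and 23.7, 23.5 and 26.2 CPM with shNT (adjusted p = 0.308 and 0.132). The pairs of p-values are for shUGDH-2 and for shUGDH-1 against shNT. In the same order, log2 fold changes were 0.19 and 0.09 for ERN1 (SE 0.11 each) and -0.06 and -0.09 for ATF6 (SE 0.04 each). For EIF2AK3 they were 0.13 and 0.16 (SE 0.08 each). ERN1 had 101 to 154 counts a library, so that changes of this size were not detectable in it. The sensors' mRNA levels say nothing of their activation, which is set on the protein.

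Where both hairpins lower the same gene, the hairpins can be set against each other directly. In shUGDH-2 against shUGDH-1, 3 of the 43 genes were higher with shUGDH-2, which is 6.98%, beside 5.36% of all genes, and none was lower, beside 5.51%. By the same edgeR test, 9 of the 43 had an unadjusted p under 0.05, beside 22.9% of all genes, and no gene was lower with shUGDH-2 by DESeq2 either. Of the 21 genes with at least 100 CPM, 3 (14.3%) were higher and none lower, beside 12% and 12% of all genes at that level. They were HSP90B1 (log2 difference 0.15, SE 0.02, adjusted p = 4.69e-08), SEC24D (0.21, SE 0.03, adjusted p = 8.51e-06) and HSPA5 (0.05, SE 0.02, adjusted p = 0.0256). For HSP90B1, SEC24D and HSPA5 the libraries of the hairpins did not overlap. The HSPA5 call was lost without shUGDH-1 replicate 1 (adjusted p = 0.0943), shUGDH-1 replicate 2 (0.0836), shUGDH-1 replicate 3 (0.0765), shUGDH-2 replicate 2 (0.0566) or shUGDH-2 replicate 3 (0.0822). P4HB was not called in this contrast (log2 difference -0.05, adjusted p = 0.0596), but reached an adjusted p of 0.0351 without shNT replicate 1. DNAJB11 (0.11, adjusted p = 0.0627) reached 0.0433 without the same library, and MANF (0.09, adjusted p = 0.187) reached 0.0472 without shUGDH-2 replicate 1. XBP1, HERPUD1 and HYOU1, which rose against shNT with both hairpins, differed between the hairpins by 0.02, 0.07 and 0.01 on the log2 scale, with adjusted p of 0.835, 0.529 and 0.76.

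**Figure D3:**
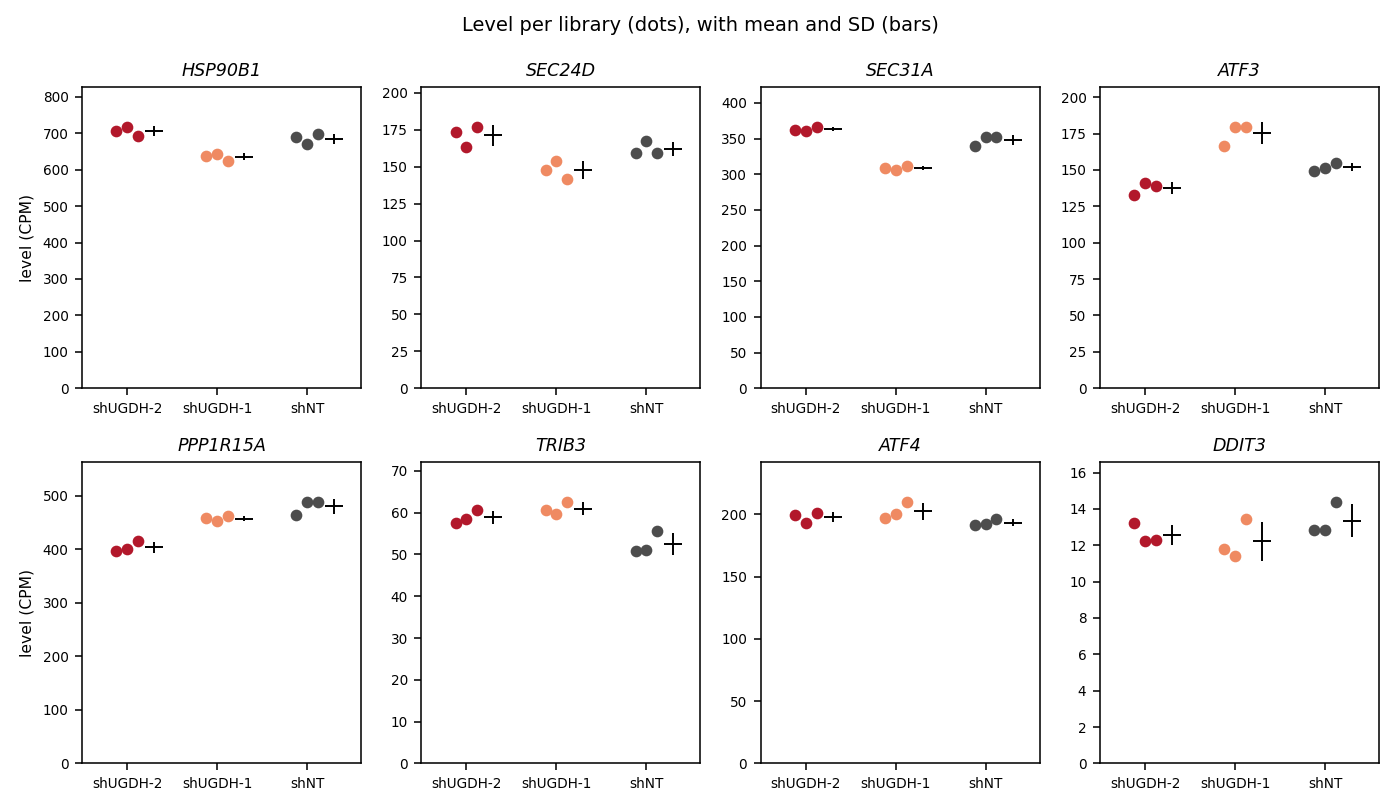
Level in CPM (y axis from 0) in every library (dots), with mean and SD (bars, n = 3), of HSP90B1 and SEC24D, the coat gene SEC31A and 5 genes of the ATF4 branch. HSP90B1, SEC24D and SEC31A are lower with shUGDH-1 than with shUGDH-2 or shNT, and ATF3 is lowest with shUGDH-2 and highest with shUGDH-1.

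Without a test, groups can also be compared by whether their 3 libraries overlap. With shUGDH-2, 12 of the 43 genes had all libraries above shNT, 1 had all below and 30 overlapped. With shUGDH-1, 13 lay above, 7 below and 23 overlapped, and between shUGDH-2 and shUGDH-1, 9 lay above, 2 below and 32 overlapped. By the same measure, 14.7% of all genes lay above and 13.9% below shNT with shUGDH-2, 17.3% and 16.8% with shUGDH-1, and 13.1% and 13.9% between the hairpins.

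Levels between genes were compared per kilobase of transcript in shNT cells. CALR was highest at 709.8 ± 12.7 CPM per kb, followed by P4HB at 398 ± 6.32, CANX at 359.7 ± 8.20, HSPA5 at 330.0 ± 5.23 and HSP90B1 at 239.7 ± 4.94 CPM per kb (SD, n = 3). No neighbours among these overlapped. HYOU1 (134 ± 1.43 CPM per kb) and SEC61A1 (133 ± 2.03) did, as did PDIA3 (107 ± 1.97) and SEC61B (103 ± 4.56), and XBP1 (42.2 ± 2.18), SEC24D (40.2 ± 1.17) and DNAJB11 (40.1 ± 0.72). In all, 17 of 42 neighbouring pairs overlapped. ERO1LB (0.82 CPM per kb), ERN1 (1.29) and DERL3 (1.90) were lowest. A single transcript length stands for each gene, and that of DNAJC10 (20129 bases) is long for its family, so its place is uncertain.

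**Figure D4:**
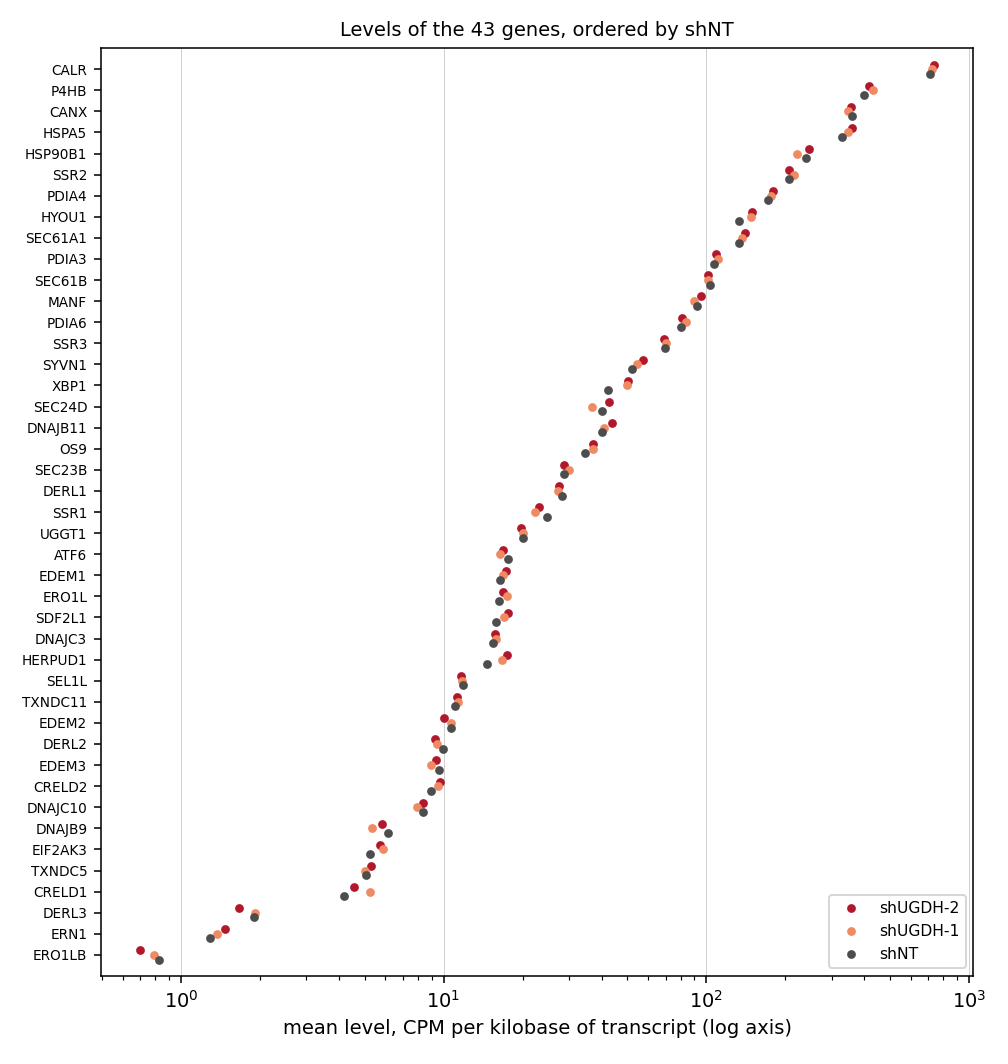
Mean level in CPM per kilobase of transcript (log axis) of the 43 genes in shUGDH-2, shUGDH-1 and shNT cells, ordered by shNT. Levels run from 0.82 for ERO1LB to 709.8 for CALR in shNT cells, and the 3 groups lie close together at every gene.

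The rest of the pathway was followed with lists of 146 other genes, of which 142 were tested. With shUGDH-2, 13 of them rose and 14 fell, which is 9.15% and 9.86%, beside the 8.04% and 6.81% of all genes. With shUGDH-1, 17 rose and 19 fell, which is 12% and 13.4%, beside 10.5% and 10.3%. Median log2 fold changes were -0.0004 with shUGDH-2 and -0.02 with shUGDH-1. With DESeq2, 7 rose with shUGDH-2. Of the genes named below, DESeq2 did not call TRIB3 (adjusted p = 0.0815), OSTC (0.0625), MLEC (0.116) and MBTPS2 (0.0705) with shUGDH-2, nor PPP1R15A (0.0852), PRKCSH (0.123), FKBP9 (0.0766) and ITPR1 (0.115) with shUGDH-1. The number that rose with shUGDH-2 was 8 without shNT replicate 3 or without shUGDH-2 replicate 1.

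The PERK arm runs through ATF4 and DDIT3 (CHOP), and its 12 listed genes were called in both directions. With shUGDH-2, 1 (8.33%) rose and 2 (16.7%) fell, beside 8.04% and 6.81% of all genes. With shUGDH-1, 3 (25%) rose and 1 (8.33%) fell, beside 10.5% and 10.3%. ATF4 itself averaged 198 ± 4.15 CPM with shUGDH-2, 202 ± 6.81 CPM with shUGDH-1 and 193 ± 2.61 CPM with shNT and was not called (adjusted p = 0.53 and 0.14). DDIT3 averaged 12.6 ± 0.56, 12.2 ± 1.08 and 13.4 ± 0.90 CPM in that order of groups and was not called either (adjusted p = 0.654 and 0.378). TRIB3, a pseudokinase induced by ATF4 and CHOP, stood at 57.4, 58.4 and 60.7 CPM with shUGDH-2, at 60.5, 59.7 and 62.6 CPM with shUGDH-1 and at 50.9, 51.1 and 55.5 CPM with shNT, and rose with both (log2 fold change 0.17, adjusted p = 0.0185, and 0.21, adjusted p = 0.0013). PPP1R15A (GADD34), the phosphatase subunit that reverses the PERK signal, stood at 396, 399.5 and 415 CPM with shUGDH-2, at 458, 452 and 462 CPM with shUGDH-1 and at 464, 489 and 488 CPM with shNT. It fell by 0.25 on the log2 scale with shUGDH-2 (SE 0.02, adjusted p = 4.36e-13) and by 0.07 with shUGDH-1 (SE 0.02, adjusted p = 0.0209). The stress transcription factor ATF3 stood at 133, 141 and 139 CPM with shUGDH-2, at 167, 179.9 and 179 CPM with shUGDH-1 and at 149, 152 and 155 CPM with shNT. It fell with shUGDH-2 (log2 fold change -0.14, adjusted p = 0.0025) and rose with shUGDH-1 (0.20, adjusted p = 4.23e-06). The TRIB3 call with shUGDH-2 was lost without shNT replicate 1 (adjusted p = 0.0833), shNT replicate 2 (0.0745) or shUGDH-2 replicate 3 (0.0989). The PPP1R15A call with shUGDH-1 was lost without shNT replicate 2 (adjusted p = 0.107), shNT replicate 3 (0.112), shUGDH-1 replicate 1 (0.055) or shUGDH-1 replicate 2 (0.115).

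Of 13 signal peptidase and signal recognition particle genes, 1 rose and 1 fell with shUGDH-2 (7.69% each), beside 8.04% and 6.81% of all genes. With shUGDH-1, 1 (7.69%) rose and 3 (23.1%) fell, beside 10.5% and 10.3%. SPCS3, a signal peptidase subunit, averaged 82.0 ± 1.63 CPM with shUGDH-2, 71.2 ± 3.00 CPM with shUGDH-1 and 92.3 ± 6.58 CPM with shNT and fell with both (log2 fold change -0.17, adjusted p = 0.00421, and -0.37, adjusted p = 3.6e-09). SRP72, a signal recognition particle subunit, fell with shUGDH-1 (-0.21, adjusted p = 3.42e-08), and SRPR, its receptor subunit, rose with both (0.15, adjusted p = 8.4e-06, and 0.12, adjusted p = 0.000242). Of 8 other translocon genes, 1 (12.5%) fell with shUGDH-2 and 2 (25%) with shUGDH-1, beside 6.81% and 10.3% of all genes. None rose, beside 8.04% and 10.5%. TRAM2 fell with both (-0.07 and -0.08). SEC63, an HSPA5-recruiting partner of Sec61, fell with shUGDH-1 (-0.19, adjusted p = 0.000194). Of 12 oligosaccharyltransferase genes, 1 (8.33%) fell with shUGDH-2 and 2 (16.7%) with shUGDH-1, and none rose, beside the same shares of all genes. They were OSTC, which fell with both (-0.18, adjusted p = 0.0103, and -0.24, adjusted p = 0.000358), and RPN2, which fell with shUGDH-1 (-0.10, adjusted p = 0.000295). Unadjusted p-values under 0.05, in either direction, were 3 and 3 among the translocon genes and 3 and 2 among the oligosaccharyltransferase genes, with shUGDH-2 and with shUGDH-1, where all genes had 26.3% and 31.7%. Without shNT replicate 1 the shUGDH-2 value of SPCS3 was -0.11 and was not called (adjusted p = 0.124). The shUGDH-2 call of TRAM2 was lost without shNT replicate 2 (adjusted p = 0.051) or shUGDH-2 replicate 2 (0.0527), and that of OSTC without shNT replicate 1 (0.0689), shNT replicate 2 (0.0698) or shUGDH-2 replicate 2 (0.0607).

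Of 12 other folding genes none was called with shUGDH-2 by edgeR, beside 8.04% of all genes that rose and 6.81% that fell. At an unadjusted p under 0.05 there was 1, beside 26.3% of all genes. With shUGDH-1, 1 (8.33%) rose and none fell, beside 10.5% and 10.3%. This was FKBP9, a prolyl isomerase (0.11, adjusted p = 0.0205). That call was lost without shNT replicate 2 (adjusted p = 0.0749) or shUGDH-1 replicate 3 (log2 fold change 0.06, adjusted p = 0.249), and with shUGDH-2 FKBP9 passed without shNT replicate 1 (adjusted p = 0.0492) or shUGDH-2 replicate 2 (0.0497). Of 6 glycan-trimming genes, 1 (16.7%) fell and none rose with shUGDH-2, beside 6.81% and 8.04% of all genes. With shUGDH-1, 2 (33.3%) rose and none fell, beside 10.5% and 10.3%. MLEC, a lectin for glucosylated chains, fell with shUGDH-2 (-0.07, adjusted p = 0.035). GANAB (0.08, adjusted p = 0.00171) and PRKCSH (0.06, adjusted p = 0.0441), the subunits of glucosidase II, rose with shUGDH-1. The MLEC call was lost without shNT replicate 1 (adjusted p = 0.081), shNT replicate 2 (0.0785), shNT replicate 3 (0.0688), shUGDH-2 replicate 1 (0.151) or shUGDH-2 replicate 3 (0.13). The PRKCSH call was lost without shNT replicate 1 (adjusted p = 0.0892), shNT replicate 3 (0.142), shUGDH-1 replicate 2 (0.117), shUGDH-1 replicate 3 (0.202) or shUGDH-2 replicate 1 (0.051). Of 13 other disulfide genes, 1 rose and 1 fell with shUGDH-2 (7.69% each), beside 8.04% and 6.81% of all genes. With shUGDH-1, 2 (15.4%) rose and 1 (7.69%) fell, beside 10.5% and 10.3%. PDIA5 averaged 24.9 ± 2.79 CPM with shUGDH-2, 26.3 ± 2.06 CPM with shUGDH-1 and 19.8 ± 1.17 CPM with shNT and rose with both (0.33, adjusted p = 0.00269, and 0.41, adjusted p = 9.08e-05). QSOX1, a sulfhydryl oxidase, rose with shUGDH-1 (0.15, adjusted p = 1.07e-06), and TMX1, a membrane thioredoxin, fell with shUGDH-2 (-0.18, adjusted p = 0.00472). The shUGDH-2 call of PDIA5 was lost without shUGDH-2 replicate 3 (adjusted p = 0.074) and that of TMX1 without shUGDH-2 replicate 1 (0.0775).

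Of 22 other degradation genes, 1 (4.55%) rose and 2 (9.09%) fell with either hairpin. Over all genes these shares were 8.04% and 6.81% with shUGDH-2 and 10.5% and 10.3% with shUGDH-1. ERLIN1, which helps degrade the inositol trisphosphate receptor, fell with both (-0.12, adjusted p = 0.00582, and -0.21, adjusted p = 2.02e-06), and YOD1, a deubiquitinase, fell with shUGDH-2 (-0.38, adjusted p = 9.41e-05). The shUGDH-2 call of ERLIN1 was lost without shNT replicate 1 (adjusted p = 0.0727) or shUGDH-2 replicate 3 (0.0803). Of 14 other sensors, their proteases and the CCAAT-binding NF-Y subunits, 3 (21.4%) rose and 2 (14.3%) fell with shUGDH-2. With shUGDH-1, 2 (14.3%) rose and 3 (21.4%) fell, both beside the same shares of all genes. CREB3L2, an ATF6 relative, averaged 611 ± 17.0 CPM with shUGDH-2, 599.8 ± 4.16 CPM with shUGDH-1 and 552 ± 5.78 CPM with shNT and rose with both (0.15, adjusted p = 3.24e-07, and 0.12, adjusted p = 1.2e-05). MBTPS2, the protease that makes the second cut in ATF6, fell with both (-0.17, adjusted p = 0.0125, and -0.27, adjusted p = 3.2e-05), and NFYC, an NF-Y subunit, fell with shUGDH-1 (-0.40, adjusted p = 3.3e-07). The shUGDH-2 call of MBTPS2 was lost without shNT replicate 1 (adjusted p = 0.093) or shUGDH-2 replicate 1 (0.158).

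Of 19 genes of ER to Golgi transport, 4 (21.1%) rose and 1 (5.26%) fell with shUGDH-2, beside 8.04% and 6.81% of all genes. With shUGDH-1, 4 (21.1%) rose and 3 (15.8%) fell, beside 10.5% and 10.3%. KDELR1, the receptor that returns chaperones from the Golgi, averaged 381 ± 14.7 CPM with shUGDH-2, 381 ± 7.96 CPM with shUGDH-1 and 348 ± 0.82 CPM with shNT and rose with both (0.13, adjusted p = 0.000106, and 0.13, adjusted p = 5.41e-05). SEC31A, an outer COPII coat subunit, fell with shUGDH-1 (-0.17, adjusted p = 8.26e-08), as its partner SEC24D did, and had 0.06 with shUGDH-2 (adjusted p = 0.0741). SAR1A, the GTPase that starts the coat, fell with shUGDH-2 (-0.21, adjusted p = 3.65e-06). Of 11 ER calcium genes, 2 rose and 2 fell with shUGDH-2 (18.2% each). With shUGDH-1, 1 (9.09%) rose and 2 (18.2%) fell, both beside the same shares of all genes. RCN2, a calcium-binding protein, and ITPR1, a calcium release channel, fell with both (-0.21 and -0.35 with shUGDH-2, -0.24 and -0.26 with shUGDH-1), and STIM1, the ER calcium sensor, rose with shUGDH-1 (0.11, adjusted p = 0.00845). The RCN2 call with shUGDH-2 was lost without shNT replicate 3 (adjusted p = 0.0633), and the ITPR1 call with shUGDH-1 without shNT replicate 1 (0.0911), shNT replicate 2 (0.0909) or shUGDH-1 replicate 3 (0.135).

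**Figure D5:**
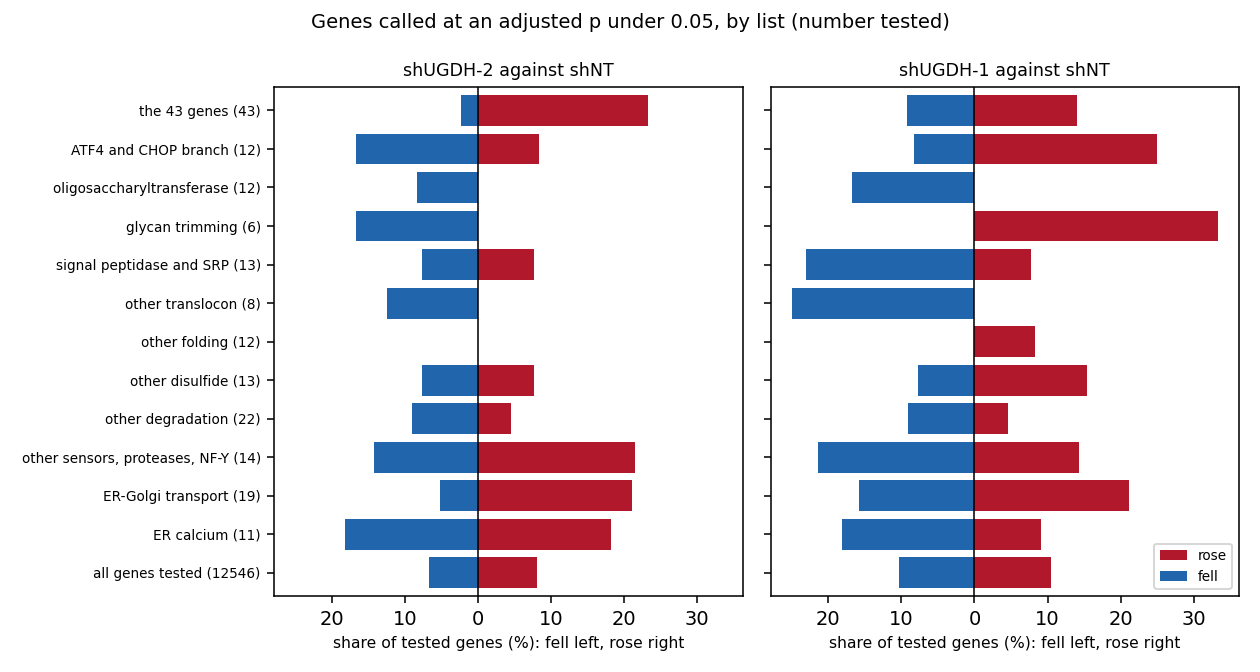
Share of tested genes that fell (left of 0, blue) and rose (right of 0, red) at an adjusted p under 0.05 in each list, with the number tested in brackets, for shUGDH-2 (left panel) and shUGDH-1 (right panel) against shNT. The 43 genes show 23.3% that rose and 2.33% that fell with shUGDH-2, and 14% and 9.3% with shUGDH-1, beside all genes tested in the last row.

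The authors' deposited table for shUGDH-2 gave 9 of the 43 genes as higher and none as lower at an adjusted p under 0.05. The authors' deposited table for shUGDH-1 gave 5 as higher and 2 as lower. No share over all genes of these tables is set beside these counts, so they have no background here.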

How the data were processed

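The deposited count table holds the authors' raw read counts per gene, with no normalization in the values. Per the submitters' processing notes, hg19, STAR, DESeq and DESeq2 were used. Versions, annotation, counting tool and strand setting were not given in the sources used here. Without strand, overlapping and antisense genes cannot be told apart. The authors' deposited tables hold, per the file headers, baseMean (a signal averaged over libraries), a log2 fold change and a p-value, and were used for counts of calls only. Groups follow the sample titles.

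Genes were fitted with edgeR 4.0.16 (R 4.3.3): filterByExpr on the 3 groups (12546 of 23710 genes, 99.93% of counts), TMM (0.997 to 1.003), robust quasi-likelihood fit over all 9 libraries without a replicate block (6 residual degrees of freedom, common biological coefficient of variation 0.0202), Benjamini-Hochberg adjustment and a threshold of 0.05. The 28 entries with symbols turned into dates (0.232% of counts) stayed in the fit unnamed. Replicate pairs differed by 1.2 to 1.91 times counting variance, the highest being those with shNT replicate 1. The fit was tested on simulated data. The members and lists were chosen with earlier results of these data known, and the split at 100 CPM was made after values were seen. Values per library are given for members that passed against shNT or between the hairpins and for the sensors; of each other list, up to 3 genes that passed with the smallest adjusted p are named, and ATF4, DDIT3, PPP1R15A and TRIB3 in any case. A gene that this rule would name is not reported here. CPM per kilobase uses GENCODE transcript lengths (97.5% of tested genes). Promoters are RefSeq's (GRCh38.p14, another build than the counts), and no coordinates were converted. PDIA3, DERL1, DERL3 and SEC24D had no promoter entry. Alternatives were RLE scaling, other filters, a replicate block, DESeq2 1.42.0, a fold threshold, fits on the groups compared, a trend correction and leaving out each library; for the genes outside the 43 these were added after seeing the data.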

Additional observations from a re-analysis of the deposited data

Results flagged for a closer look

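These genes are listed because their levels differed between the UGDH hairpins in the direct test of shUGDH-2 against shUGDH-1 (edgeR's quasi-likelihood test, Benjamini-Hochberg over all genes), which is also the test of whether the effects against shNT differ. Among the 43 genes, the log2 difference was 0.05 for HSPA5 (adjusted p = 0.0256), 0.15 for HSP90B1 (adjusted p = 4.69e-08) and 0.21 for SEC24D (adjusted p = 8.51e-06), each higher with shUGDH-2. For the stress-branch genes it was -0.18 for PPP1R15A (adjusted p = 2.13e-08) and -0.35 for ATF3 (adjusted p = 4.92e-12), both lower with shUGDH-2. For entry and glycosylation genes it was 0.07 for RPN2 (adjusted p = 0.0278), -0.08 for MLEC (0.0185), 0.20 for SPCS3 (0.00193), 0.14 for SRP72 (0.000164) and 0.13 for SEC63 (0.025). QSOX1 had -0.15 (6.27e-07), YOD1 -0.24 (0.0214), NFYC 0.48 (4.12e-09), SEC31A 0.24 (1.86e-11) and SAR1A -0.16 (0.000707). Without 1 library the difference was no longer called for RPN2 (shUGDH-1 replicate 1, adjusted p = 0.0833, replicate 2, 0.0925, replicate 3, 0.0785, or shUGDH-2 replicate 1, 0.143) and MLEC (shUGDH-1 replicate 2, 0.12, or shUGDH-2 replicate 1, 0.0954, or 3, 0.0877). The same held for SEC63 (shUGDH-1 replicate 2, 0.0504, or 3, 0.171, or shUGDH-2 replicate 2, 0.0663, or 3, 0.102) and YOD1 (shUGDH-1 replicate 2, 0.14, or shUGDH-2 replicate 1, 0.0742, or 3, 0.0637), and for HSPA5 as given in the results. DESeq2 did not call RPN2 (adjusted p = 0.0728), MLEC (0.0784), SEC63 (0.0976) or YOD1 (0.117) in this contrast, nor HSPA5. UGDH itself did not pass this test (log2 difference -0.09, SE 0.13).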

How the results depend on the processing

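RLE scaling, no filter on low counts, a mean of at least 5 CPM and the replicate block changed no call of a gene among the 43. For named genes outside the 43, the filters changed calls with shUGDH-2. With no filter, MLEC was lost (adjusted p = 0.0613) and FKBP9 was called (0.0454). With a mean of at least 5 CPM, FKBP9 (0.0472), GANAB (0.0415) and SEC31A (0.0494) were called. With the replicate block, 10 genes rose and 1 fell with shUGDH-2, 6 rose and 4 fell with shUGDH-1, and the median log2 fold changes were 0.044 and 0.038. Same-numbered libraries correlated at -0.097 to 0.169, so the numbers do not pair them. Against a minimum change of 1.1-fold (glmTreat), 1 gene rose with shUGDH-2 (XBP1) and 0 fell. With shUGDH-1, 0 rose and 0 fell, and 0 were higher with shUGDH-2 than with shUGDH-1. Of all 12546 genes, 204 rose and 46 fell with shUGDH-2 in this setting, and 378 rose and 242 fell with shUGDH-1. Between the hairpins, 147 of all genes were higher and 133 lower with shUGDH-2. DESeq2 lost 8 calls and gained none, among them the 1 gene that fell with shUGDH-2, which left 0. The lost calls were CANX, CRELD1 and HERPUD1 with shUGDH-1, DNAJB11, CALR, PDIA4 and SSR1 with shUGDH-2, and HSPA5 between the hairpins. Fitted on the groups compared alone, CALR was no longer called with shUGDH-2 (adjusted p = 0.068), nor was MLEC (0.0572), and between the hairpins DNAJB11 (0.045) was higher and 1 gene, P4HB (0.0396), lower with shUGDH-2. For the 142 other pathway genes, the 1.1-fold minimum left 0 that rose and 2 that fell with shUGDH-2, 1 and 4 with shUGDH-1, and 3 higher and 1 lower between the hairpins, and DESeq2 left 7 that rose with shUGDH-2 and 4 that were lower with shUGDH-2 than with shUGDH-1. Of the named ones it ended 12 calls: PPP1R15A, PRKCSH, FKBP9 and ITPR1 with shUGDH-1, TRIB3, OSTC, MLEC and MBTPS2 with shUGDH-2, and RPN2, MLEC, SEC63 and YOD1 between the hairpins. Leaving out 1 library gave 8 to 12 that rose with shUGDH-2 and 4 to 10 lower between the hairpins, alternatives chosen after seeing the data. Removing a trend with GC content, length and expression moved the shUGDH-2 median to 0.0553. Leaving out 1 library gave 7 to 12 genes that rose and 0 to 1 that fell with shUGDH-2 (median 0.025 to 0.0595). With shUGDH-1 it gave 4 to 7 and 2 to 5 (median 0.0179 to 0.0455). Between the hairpins it gave 2 to 4 and 0 to 1 (median 0.0041 to 0.0222). Of all genes, 761 to 999 then rose and 495 to 843 fell with shUGDH-2. With shUGDH-1, 1042 to 1318 of all genes rose and 941 to 1288 fell. Between the hairpins, 488 to 802 of all genes were higher and 492 to 821 lower with shUGDH-2. The cause of these differences was not tested. No called value changed sign under any of these settings.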
